A study of Homo sapiens with 16 samples.

Results

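Doxycycline was used to switch on short hairpin RNAs (shRNAs) against PRRX1 in Hs578 breast cancer cells, and the transcriptome was compared with that of the same lines kept without the drug. The libraries were chosen by their titles and shRNA labels: 3 Hs578 hairpin lines, each carrying 1 PRRX1 shRNA and each sequenced with and without doxycycline, gave 6 of the 16 libraries in the series. The induced lines (hairpins 1, 2 and 3) had received 3 µg/ml doxycycline and the uninduced lines none (0 µg/ml), so both groups carried the hairpin and differed in the drug. Parental Hs578 cells without a hairpin, sequenced once with 3 µg/ml doxycycline and once without, served as a check on the drug itself. The 3 hairpin lines of TT642, a line whose source label is rhabdoid tumour, were set against the Hs578 hairpin lines in 1 comparison. All 16 libraries, the hairpin and parental ones of TT642 included, entered the main fit and its estimate of the spread. The sources used here do not give the hairpin sequences, the promoter that drives them or the length of treatment. Separate cultures are not described, so the p-values given here reflect the spread between the libraries fitted, which may be in part technical. The design text of the series names triple-negative breast cancer, the class of breast tumours that lacks hormone receptors and HER2.

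PRRX1 is a homeobox transcription factor that is made in the mesenchyme of embryonic limb and face and in fibroblasts, and that is used as a marker of mesenchymal states in carcinoma cells. Homeobox factors bind short AT-rich sites, and a change in such a factor can be followed by changes in adhesion molecules, matrix proteins and secreted ligands. Doxycycline, the inducer, is an antibiotic that also blocks protein synthesis by mitochondrial ribosomes, so it can alter transcripts in cells that hold no hairpin.

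The promoters of 4 genes whose values are described below are shown, as a reference for where a regulator could bind: VAT1L and MME were lower in each induced hairpin line, and TGFBI and CA9 were higher. Each line gives the 250 bases before the RefSeq start (build GRCh38.p14), 5′ to 3′ on the strand of the gene, which is the plus strand for all of them. Capitals mark matches, on either strand, to the homeobox core TAAT, its palindrome TAATTA, the AP-1 site TGANTCA or the hypoxia response core ACGTG.
VAT1L (chr16:77788314-77788563): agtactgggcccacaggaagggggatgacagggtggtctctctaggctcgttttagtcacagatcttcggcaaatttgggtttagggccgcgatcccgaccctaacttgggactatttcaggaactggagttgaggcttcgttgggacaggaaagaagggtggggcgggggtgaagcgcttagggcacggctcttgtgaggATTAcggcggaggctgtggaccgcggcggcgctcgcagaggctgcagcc
MME (chr3:155079422-155079671): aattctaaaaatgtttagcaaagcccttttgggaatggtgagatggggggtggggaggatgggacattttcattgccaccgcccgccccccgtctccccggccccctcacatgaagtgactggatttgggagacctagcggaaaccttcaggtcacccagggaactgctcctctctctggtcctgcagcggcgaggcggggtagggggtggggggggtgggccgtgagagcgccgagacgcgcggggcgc
TGFBI (chr5:136028738-136028987): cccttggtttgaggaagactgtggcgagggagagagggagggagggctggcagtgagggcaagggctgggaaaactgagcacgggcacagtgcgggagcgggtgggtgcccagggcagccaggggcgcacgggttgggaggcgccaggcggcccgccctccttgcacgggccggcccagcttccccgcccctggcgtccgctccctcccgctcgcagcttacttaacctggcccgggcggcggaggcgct
CA9 (chr9:35673678-35673927): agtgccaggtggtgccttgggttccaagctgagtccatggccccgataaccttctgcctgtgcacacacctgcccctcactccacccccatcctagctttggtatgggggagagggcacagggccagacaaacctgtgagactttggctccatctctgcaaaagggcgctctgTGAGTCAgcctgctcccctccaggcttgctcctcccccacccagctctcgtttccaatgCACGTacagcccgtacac

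The VAT1L window held 1 TAAT match (printed as ATTA), the CA9 window held 1 TGANTCA and 1 ACGTG match (printed as TGAGTCA and CACGT), and the windows of MME and TGFBI held none of the 4 motifs. Over all 27305 promoter windows of the same length, 48.2% held TAAT, 4.49% TAATTA, 6.6% TGANTCA and 18.7% ACGTG. Over the 10466 windows of genes tested, the shares were 33.0% for TAAT, 1.92% for TAATTA, 4.13% for TGANTCA and 23.0% for ACGTG. A match describes letters in the window and is not evidence of binding.

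The 6 libraries held 13461527 to 19139654 counts. Mitochondrial transcripts took 3.18%, 4.27% and 5.44% of the counts in induced hairpin lines 1, 2 and 3, against 2.79%, 2.29% and 2.16% in the uninduced lines, and 4.16% in treated against 2.73% in untreated parental cells. The share was thus higher with doxycycline in all 4 pairs, and its part in the changes below was not tested. Of the mesenchymal markers, VIM, FN1, SPARC and THY1 were abundant, and the 6 markers together summed to 19800 to 24200 CPM in induced and 16900 to 18500 CPM in uninduced lines. By the edgeR test described below, only SPARC and TWIST1 of them were higher (adjusted p = 0.00019 and 0.011). FN1 and VIM, which make up most of the sum, did not pass (0.35 and 0.14). Their highest Hs578 levels, 17800 and 5870 CPM, were in parental cells. CPM are read counts scaled to a common effective library size. Epithelial markers summed to 325 to 392 CPM in induced and 350 to 441 CPM in uninduced lines, most of it KRT18, with CDH1, EPCAM, GRHL2 and KRT19 under 0.5 CPM in each library. CD3E and CDH5, markers of T cells and endothelium, were at 0 in these libraries. Markers of blood cells summed to 44.9 to 79.9 CPM in induced and 65.6 to 67.8 CPM in uninduced lines, nearly all of it the lysosomal protein CD68. Luminal markers summed to 78.8 to 86.5 CPM in induced and 82.9 to 89.5 CPM in uninduced lines, most of it ERBB2, and endothelial markers to 0.532 to 0.99 CPM in induced and 0.518 to 0.814 CPM in uninduced lines.

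PRRX1, the target of the hairpins, held 37.1, 72.8 and 51.0 CPM in induced lines 1, 2 and 3, against 291, 227 and 262 CPM in the uninduced lines. Hairpin 1 thus had the lowest induced and the highest uninduced level, hairpin 2 the reverse, and the groups did not overlap. On the length-scaled FPKM values of the authors the levels were 7.77, 14.3 and 9.58 FPKM with induction, against 65.2, 49.7 and 59.3 FPKM without. The hairpins left 12.7% (95% interval 11.6% to 13.9%), 32.1% (29.8% to 34.6%) and 19.5% (18.1% to 20.9%) of the transcript, and parental cells kept 103% (98.8% to 107%), where the intervals cover counting error only. By edgeR's quasi-likelihood test, used for all log2 fold changes below, PRRX1 fell by 2.28 on the log2 scale (SE 0.37, adjusted p = 0.0022), and the call held in each fit that left out 1 hairpin. In bulk RNA, fewer cells that make a transcript and less of it per cell cannot be told apart. PRRX2, its paralogue, held 19.2, 54.1 and 45.6 CPM with induction, against 21.4, 22.5 and 25.2 CPM without. It was higher in lines 2 and 3 and not in line 1, the groups overlapped, and the difference missed the threshold (0.78, SE 0.36, adjusted p = 0.13), although it passed without hairpin 1 (adjusted p = 0.035).

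**Figure D1:**
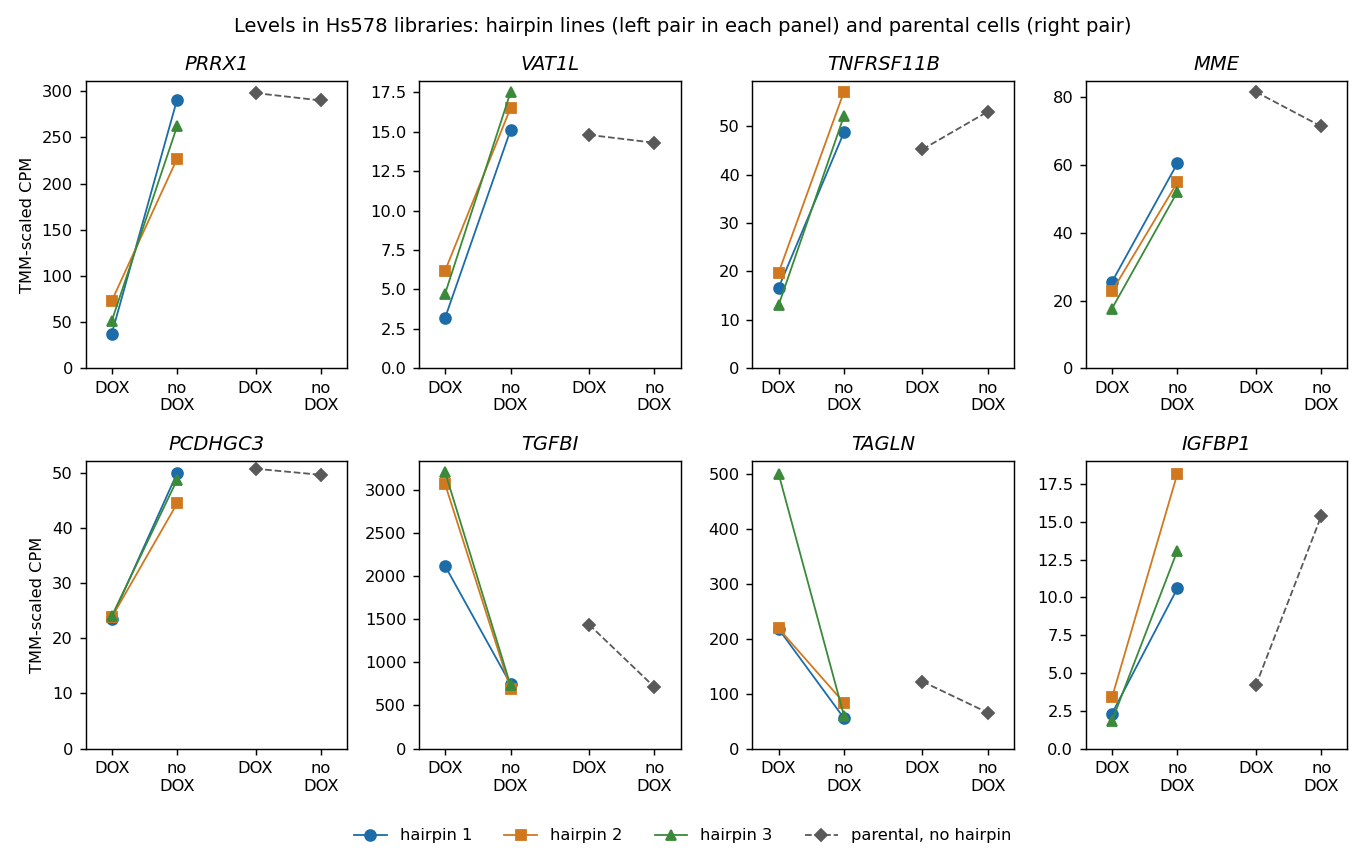
Levels in TMM-scaled CPM (y axes, linear from 0) of 8 genes in the 8 Hs578 libraries, with the hairpin lines as the left pair of points in each panel and parental cells as the right pair, and doxycycline left of none in each pair. Points are single libraries and lines join libraries of 1 derived line. PRRX1, VAT1L, TNFRSF11B, MME and PCDHGC3 are lower with doxycycline in each hairpin line and change little in parental cells, whereas TGFBI, TAGLN and IGFBP1 move the same way in both.

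Across the transcriptome, 4118 of the 14035 genes tested passed an adjusted p of 0.05 in the induced against the uninduced lines (29.3%), 2139 of them higher (15.2%) and 1979 lower (14.1%). The changes were mostly small: 211 genes were at least 2-fold higher (1.5%) and 203 at least 2-fold lower (1.45%). Of the called genes, 4090 (99.3%) had the same sign in the 3 hairpin pairs and 3943 had groups that did not overlap, while 6184 of all genes tested (44.1%) did not overlap. The number of calls rested on individual libraries. It was 2234 without hairpin 2, 1548 without hairpin 3, 2714 and 2680 without the induced libraries of hairpins 2 and 3, and 2253 without the uninduced library of hairpin 1. Genes called in each of the fits without 1 hairpin numbered 627 higher (4.47%) and 586 lower (4.18%), or 1213 in all (8.64%), and these are called stable below. The split between directions differed between the alternatives. On the same counts, RLE scaling called 1904 genes higher and 2260 lower, and DESeq2 1899 and 2288. Limma on the authors' FPKM, which changes unit, scaling and test together, called 1352 higher and 3112 lower with a pseudocount of 1, 1276 and 2903 with 0.1, and 1322 and 2903 with 1 and no filter.

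**Figure D2:**
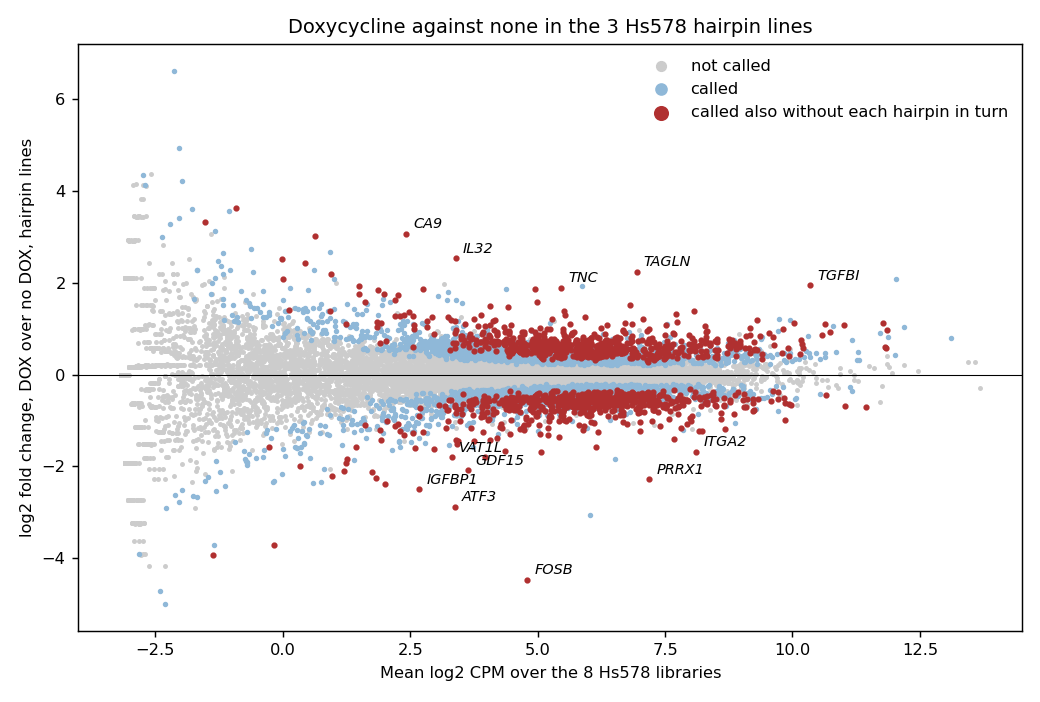
The log2 fold change of the induced over the uninduced Hs578 hairpin lines (y axis) against the mean log2 CPM over the 8 Hs578 libraries (x axis), 1 point per gene, for 14035 genes. Grey points were not called, blue points were called at an adjusted p under 0.05, and the 1213 red points were called also without each hairpin in turn. FOSB, ATF3, IGFBP1 and PRRX1 lie lowest and CA9, IL32, TAGLN and TGFBI highest among the labelled genes.

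The number of large changes differed between the hairpin pairs, and the single parental pair had as many. Among the 10762 genes whose mean log2 CPM was 2 or more, the pairs of hairpins 1, 2 and 3 had 22, 180 and 236 genes at least 2-fold higher, and the parental pair 268. At least 2-fold lower were 193, 119 and 214 genes in these hairpin pairs and 208 in the parental pair. Hairpin 1, with the least PRRX1 left, thus had the fewest large rises. The median absolute log2 ratio over all genes tested was 0.27, 0.29 and 0.32 in these hairpin pairs, and parental cells had 0.33. Each pair is 1 library against 1, and these values carry no test.

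The 12 stable genes with the largest falls were FOSB, ATF3, IGFBP1, PRRX1, GDF15, VAT1L, PTGS2, TNFRSF11B, ITGA2, MCTP1, KCNJ2 and TRHDE. None of them was called net of the effect of doxycycline in parental cells. TNFRSF11B (osteoprotegerin), a secreted decoy that binds the bone-resorption ligand RANKL, held 16.6, 19.7 and 13.0 CPM in induced and 48.7, 57.1 and 52.1 CPM in uninduced lines. The induced values lay close together and far below the others, with a fall of 1.69 on the log2 scale (SE 0.17, adjusted p = 1e-04). In parental cells it held 45.2 CPM with and 53.0 CPM without doxycycline. VAT1L, a homologue of the vesicle membrane protein VAT1, held 3.2, 6.19 and 4.73 CPM in induced and 15.1, 16.5 and 17.5 CPM in uninduced lines, and parental cells held 14.8 and 14.3 CPM with and without the drug. It fell by 1.81 on the log2 scale (SE 0.25, adjusted p = 0.00045). Over the induced lines VAT1L, like PRRX1, was lowest in hairpin 1 and highest in hairpin 2. This order over 3 libraries was not tested. GDF15 and PTGS2 had it too, whereas TNFRSF11B and MME were lowest in hairpin 3. PTGS2, the inducible cyclooxygenase of prostaglandin synthesis, held 4.83, 9.65 and 8.28 CPM in induced and 39.7, 22.6 and 16.2 CPM in uninduced lines, against 22.3 and 26.3 CPM in treated and untreated parental cells. It fell by 1.79 (SE 0.34, adjusted p = 0.0039), and most in hairpin 1, with a pair log2 ratio of -3.01 there, -1.22 in hairpin 2 and -0.96 in hairpin 3.

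Other genes of this set were also lower in parental cells with doxycycline. IGFBP1, a secreted binding protein of insulin-like growth factors, held 2.31, 3.38 and 1.83 CPM in induced and 10.6, 18.2 and 13.1 CPM in uninduced lines, and 4.18 against 15.4 CPM in treated and untreated parental cells. It fell by 2.5 in the hairpin lines (SE 0.29, adjusted p = 0.00047), with a parental log2 ratio of -1.86. GDF15, a stress-induced cytokine, held 3.94, 7.26 and 6.03 CPM in induced and 16.9, 37.2 and 18.5 CPM in uninduced lines, and 12.5 against 21.8 CPM in the parental pair (-2.08, SE 0.33, adjusted p = 0.0019). ITGA2, the collagen-binding integrin chain alpha 2, held 173, 176 and 88.1 CPM in induced and 560, 394 and 445 CPM in uninduced lines. Treated parental cells held 239 CPM and untreated ones 551 CPM. The change in the hairpin lines was -1.68 (SE 0.24, adjusted p = 0.001). MCTP1, a calcium-binding membrane protein, the potassium channel KCNJ2 and TRHDE, an enzyme that degrades thyrotropin-releasing hormone, fell by 1.66, 1.61 and 1.60 on the log2 scale and had parental log2 ratios of -1.19, -1.40 and -1.19.

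The early response factors FOSB and ATF3 had the largest falls, but their uninduced levels were uneven. FOSB, a partner of JUN in AP-1, held 11.1, 10.7 and 6.33 CPM in induced lines, against 352, 244 and 24.5 CPM in uninduced lines, and 3.85 against 54.6 CPM in treated and untreated parental cells. The uninduced hairpin 3 library was thus far below the other uninduced lines, while the induced lines were alike. FOSB fell by 4.47 (SE 0.85, adjusted p = 0.0056), a call that was lost when the Hs578 libraries were fitted alone (adjusted p = 0.05). ATF3, a stress-induced repressor, held 3.88, 3.88 and 4.91 CPM in induced and 53.3, 31.6 and 9.5 CPM in uninduced lines, and 8.17 against 12.2 CPM in the parental pair. It fell by 2.88 (SE 0.55, adjusted p = 0.0054).

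The 12 stable genes with the largest rises were CA9, IL32, TAGLN, TGFBI, TNC, CYGB, ACTA2, GPX7, MMP13, EFEMP2, HLA-B and PHOSPHO1. All were also higher in the treated parental library than in the untreated one, none was called net of the parental effect, and their groups did not overlap in the hairpin lines. That lack of overlap largely follows from how they were chosen, since 3943 of the 4118 called genes did not overlap. Of all genes tested, 22.1% did not overlap and were higher. TGFBI, a secreted matrix protein induced by TGF-beta, held 2120, 3070 and 3210 CPM in induced and 749, 691 and 734 CPM in uninduced lines. Its uninduced values were nearly equal, hairpin 1 had the smallest rise, and parental cells held 1440 CPM with and 713 CPM without the drug. TGFBI rose by 1.95 (SE 0.23, adjusted p = 0.00044). TNC (tenascin C), an adhesion-modulating matrix glycoprotein, held 65.2, 92.4 and 127 CPM in induced and 25.9, 27.7 and 23.3 CPM in uninduced lines, and 42.6 against 25.2 CPM in the parental pair (1.89, SE 0.26, adjusted p = 0.00096). EFEMP2 (fibulin 4), which takes part in elastic fibre assembly, held 36.0, 57.6 and 80.7 CPM in induced and 17.5, 20.3 and 20.2 CPM in uninduced lines, with 50.0 against 17.2 CPM in parental cells, and rose by 1.59 (SE 0.23, adjusted p = 0.001).

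MMP13 (collagenase 3), which cleaves fibrillar collagen, stood apart among these genes in that the parental pair hardly differed. It held 9.04, 8.5 and 8.22 CPM in induced and 2.67, 3.41 and 2.3 CPM in uninduced lines, against 3.78 and 3.39 CPM in treated and untreated parental cells. The 3 induced values were close together, and the rise was 1.62 (SE 0.24, adjusted p = 0.00094). The difference from the parental effect was 1.46 and was not called (adjusted p = 0.2). PHOSPHO1, a phosphatase of bone mineralisation, held 21.8, 47.2 and 29.7 CPM in induced and 10.6, 12.7 and 11.5 CPM in uninduced lines, with 13.6 against 8.55 CPM in parental cells (1.5, SE 0.23, adjusted p = 0.00075). CA9, the carbonic anhydrase induced by hypoxia, held 9.52, 26.7 and 10.1 CPM in induced and 2.27, 1.1 and 2.07 CPM in uninduced lines, and 17.2 against 2.24 CPM in the parental pair. Hairpin 2 had the highest induced value, and the rise was 3.07 (SE 0.5, adjusted p = 0.0046). IL32, a proinflammatory cytokine, held 14.6, 25.2 and 41.5 CPM in induced and 4.42, 4.45 and 5.18 CPM in uninduced lines, with 17.4 against 4.82 CPM in parental cells (2.53, SE 0.3, adjusted p = 0.00033). CYGB, a globin of fibroblasts, GPX7, an endoplasmic reticulum peroxidase, and HLA-B, a class I antigen-presenting molecule whose reads may be shared with other HLA genes, rose by 1.87, 1.74 and 1.53 and had parental log2 ratios of 1.46, 1.23 and 1.48.

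**Figure D3:**
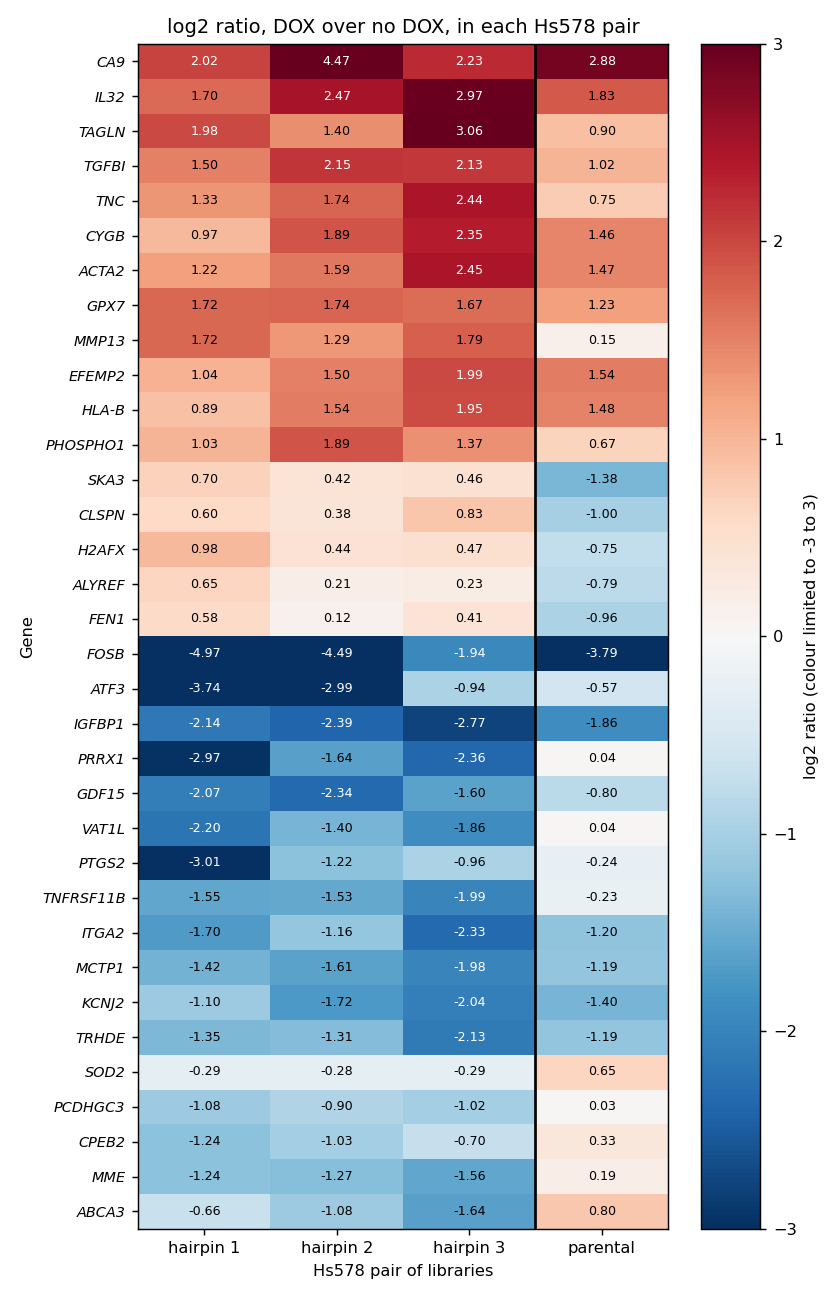
Heat map of the log2 ratio of doxycycline over none in each Hs578 pair (columns: hairpins 1 to 3, then parental cells right of the line), with the ratio printed in each cell, for the 24 stable genes with the largest changes and the 10 genes named for their difference from the parental effect. Colour is limited to -3 to 3. PRRX1, VAT1L, PCDHGC3 and MME are blue in the hairpin columns and near white in parental cells, whereas SKA3, CLSPN, H2AFX, ALYREF and FEN1 are pale red in the hairpin columns and blue in parental cells.

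The hairpin effect was next set against the effect of doxycycline in parental cells, to ask which changes the drug without a hairpin did not share. This test rests on 1 treated and 1 untreated parental library, assumed to vary like the hairpin groups. It called 57 genes (0.406%), 41 higher (0.292%) and 16 lower (0.114%), and 140 genes with a term for each derived line. The count was 26 without hairpin 1, 92 without hairpin 2, 16 without hairpin 3, 128 without the induced library of hairpin 2, and 5 and 8 without the uninduced libraries of hairpins 1 and 3. Of the 57 genes, 30 were also called in the hairpin lines in the same direction, 19 higher and 11 lower. PRRX1 itself differed by -2.32 and was not called (adjusted p = 0.18), nor were VAT1L (-1.85, adjusted p = 0.098) and TNFRSF11B (-1.46, adjusted p = 0.071).

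The 5 genes with the smallest p among those lower than in the parental comparison were SOD2, PCDHGC3, CPEB2, MME and ABCA3. MME (CD10, neprilysin), a surface peptidase that is a marker of breast fibroblasts and myoepithelium, held 25.5, 22.7 and 17.6 CPM in induced and 60.5, 54.9 and 52.1 CPM in uninduced lines. In parental cells it held 81.6 CPM with and 71.4 CPM without the drug, so that it was lower in the 3 hairpin pairs and not in the parental pair. MME fell by 1.35 in the hairpin lines (SE 0.14, adjusted p = 0.00012) and differed from the parental effect by -1.54 (SE 0.27, adjusted p = 0.031). That difference was lost in the fits without hairpin 2 (adjusted p = 0.058) or 3 (0.072), without the uninduced library of hairpin 1 (0.081), 2 (0.054) or 3 (0.069), with the Hs578 libraries alone (0.069), and by limma on the FPKM values with a pseudocount of 1 (0.064), of 0.1 (0.24), or of 1 and no filter (0.051). PCDHGC3, a gamma protocadherin, held 23.6, 23.8 and 24.0 CPM in induced and 50.0, 44.5 and 48.8 CPM in uninduced lines, and 50.8 against 49.7 CPM in the parental pair. The induced levels agreed to within 1 CPM, the change was -1.0 (SE 0.085, adjusted p = 5.5e-05), and the difference from the parental effect was -1.04 (SE 0.17, adjusted p = 0.024). It was lost without hairpin 3 (adjusted p = 0.073), without the uninduced library of hairpin 1 (0.063) or 3 (0.056), with the Hs578 libraries alone (0.079), and on FPKM with a pseudocount of 1 (0.063) or 0.1 (0.089). Gamma protocadherin transcripts share their constant exons, so how the counting divided their reads is uncertain.

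CPEB2, which binds the tails of messenger RNAs and regulates their translation, held 25.1, 26.6 and 30.6 CPM in induced and 59.2, 54.4 and 49.9 CPM in uninduced lines, and 85.5 against 68.2 CPM in parental cells. It fell by 0.99 (SE 0.11, adjusted p = 0.00015), and its difference from the parental effect, -1.31 (adjusted p = 0.024), was lost without hairpin 1 (0.058) and without the uninduced library of hairpin 1 (0.066) or 3 (0.052), with the Hs578 libraries alone (0.069), and on FPKM with a pseudocount of 1 (0.079), of 0.1 (0.17), or of 1 and no filter (0.066). SOD2, the mitochondrial superoxide dismutase, held 87.5, 87.4 and 89.8 CPM in induced and 107, 106 and 110 CPM in uninduced lines, a small fall of 0.29 (SE 0.074, adjusted p = 0.01) that was lost without hairpin 2 (adjusted p = 0.055) or 3 (0.07). The parental pair moved the other way, with 189 CPM treated and 120 CPM untreated. ABCA3, a lipid transporter, held 3.67, 2.56 and 1.77 CPM in induced and 5.87, 5.55 and 5.76 CPM in uninduced lines, against 9.45 and 5.39 CPM in treated and untreated parental cells. For SOD2 and ABCA3 the difference thus combined lower values in the hairpin lines with a higher value in treated parental cells. It was -0.94 for SOD2 (adjusted p = 0.021), lost without hairpin 3 (0.058) and without the uninduced library of hairpin 1 (0.054) or 3 (0.052), with the Hs578 libraries alone (0.078), and on FPKM with a pseudocount of 1 (0.19), of 0.1 (0.22), or of 1 and no filter (0.21). For ABCA3 it was -1.92 (adjusted p = 0.031), lost without hairpin 2 (0.063) or 3 (0.073) and without the uninduced library of hairpin 1 (0.079), 2 (0.052) or 3 (0.075) and with the Hs578 libraries alone (0.11). On FPKM the difference for ABCA3 was -0.85 with a pseudocount of 1 (adjusted p = 0.11), -1.4 with 0.1 (0.11), and -0.85 with 1 and no filter (0.093).

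On the other side, the 5 genes named are SKA3, CLSPN, H2AFX, ALYREF and FEN1, most of which act in chromosome segregation or DNA replication and repair. SKA3, a kinetochore subunit, held 37.0, 29.9 and 31.1 CPM in induced and 22.7, 22.3 and 22.6 CPM in uninduced lines, but 8.71 against 22.9 CPM in treated and untreated parental cells. The larger part of the difference of 1.93 (SE 0.24, adjusted p = 0.016) thus lay in the single treated parental library. CLSPN (claspin), a replication checkpoint protein, held 86.4, 73.3 and 98.2 CPM in induced and 56.8, 56.1 and 55.3 CPM in uninduced lines, and 27.4 against 54.7 CPM in the parental pair. H2AFX, the histone variant marked at DNA breaks, the messenger RNA export factor ALYREF and the flap endonuclease FEN1 showed the same arrangement, with parental log2 ratios of -0.75, -0.79 and -0.96 and rises of 0.63, 0.36 and 0.37 in the hairpin lines. The rise of ALYREF was lost without hairpin 1 (adjusted p = 0.058) and on FPKM with a pseudocount of 1 (0.082), of 0.1 (0.084), or of 1 and no filter (0.1). That of FEN1 was lost without hairpin 1 (adjusted p = 0.11) or 3 (0.098), without the uninduced library of hairpin 1 (0.064) and on FPKM with no filter (0.059), and that of SKA3 on FPKM with a pseudocount of 0.1 (0.055).

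Some genes changed in opposite directions in different hairpin lines, and the 6 expressed genes with the widest spread are given as a description without a test. They were EGR1, DUSP1, FOSB, IL6, IL8 (CXCL8) and CTGF (CCN2), which are early response factors, a phosphatase that switches off MAP kinases, cytokines and a secreted target of YAP. EGR1 held 291, 314 and 250 CPM in induced lines, against 1010, 862 and 82.8 CPM in uninduced lines, with pair log2 ratios of -1.79, -1.46 and 1.59. The uninduced hairpin 3 library was the lowest of the uninduced lines, as for FOSB, and the induced lines were alike. Parental cells held 55.4 CPM of EGR1 with and 230 CPM without the drug, the latter nearer to uninduced hairpin 3 than to hairpins 1 and 2. IL6 held 10.9, 13.1 and 23.8 CPM in induced and 32.5, 26.3 and 8.93 CPM in uninduced lines, lower with induction in hairpins 1 and 2 and higher in hairpin 3. CTGF held 384, 384 and 1040 CPM in induced and 755, 697 and 374 CPM in uninduced lines, again with hairpin 3 opposite to the others. DUSP1 held 51.1, 59.8 and 73.3 CPM in induced and 384, 224 and 55.6 CPM in uninduced lines. It was called lower (-1.85, SE 0.55, adjusted p = 0.033), but not with a term for each derived line (0.18) or without hairpin 1 (0.22) or 2 (0.14). Untreated parental cells held 14.3 CPM of IL6, 500 CPM of CTGF and 101 CPM of DUSP1. These values lay between uninduced hairpin 3 and the other uninduced lines.

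**Figure D4:**
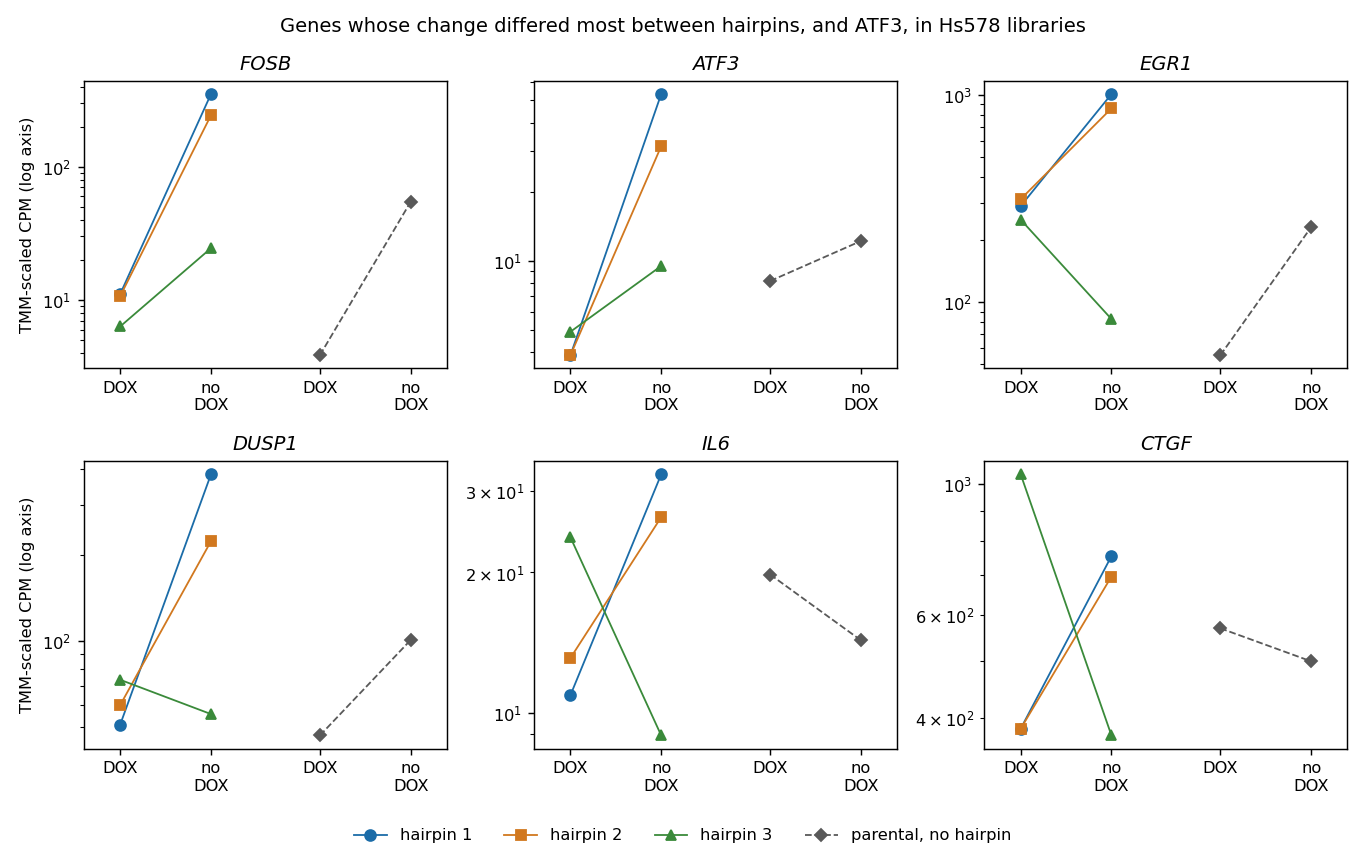
Levels in TMM-scaled CPM (log y axes) of FOSB, ATF3, EGR1, DUSP1, IL6 and CTGF in the 8 Hs578 libraries, with hairpin lines as the left pair and parental cells as the right pair of each panel, and doxycycline left of none. The uninduced hairpin 3 library (green triangle at no DOX) lies below those of hairpins 1 and 2 for all 6 genes, as for EGR1 with 82.8 CPM against 1010 and 862 CPM. The untreated parental library lies between them and nearer to hairpin 3, as for EGR1 with 230 CPM.

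Gene lists for pathways of mesenchymal cells were then described by their counts and medians, beside 15.2% higher, 14.1% lower and a median log2 fold change of 0 over all genes tested. For stable genes the shares over all genes tested were 4.47% higher and 4.18% lower. Net of the parental effect they were 0.292% higher and 0.114% lower. At these net shares a list of such a size would hold few calls or none. Integrins, the receptors that attach cells to the matrix, had the lowest median of the 22 lists, at -0.47. Of 19 tested, 9 fell and 1 rose (47.4% and 5.26%), and 6 of the falls and the rise were stable. In the pairs of hairpins 1, 2 and 3 the median was -0.67, -0.29 and -0.48, while the single parental pair had 0.1. No integrin was called net of the parental effect. Besides ITGA2, the alpha 4 chain ITGA4, a fibronectin and VCAM1 receptor, held 55.1, 45.0 and 33.5 CPM in induced and 125, 89.0 and 104 CPM in uninduced lines, and 60.8 against 129 CPM in parental cells (-1.25, SE 0.19, adjusted p = 0.00087). ITGA6, a laminin receptor chain, held 115, 124 and 80.6 CPM in induced and 251, 214 and 230 CPM in uninduced lines, and 197 against 251 CPM in parental cells (-1.12, SE 0.19, adjusted p = 0.0017). ITGB8, which activates latent TGF-beta with the alpha V chain, fell by 1.53, a call that was lost without hairpin 1 (adjusted p = 0.052), 2 (0.11) or 3 (0.11) and in fits without single libraries: induced 2 (0.07), induced 3 (0.094) and uninduced 1 (0.079). On FPKM with no filter ITGB8 changed by -0.73 on the log2 scale and was not called (adjusted p = 0.053).

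The remaining integrins that passed the test were chosen for naming after their values were seen. ITGB1, the beta chain shared by many of these receptors, held 706, 686 and 682 CPM in induced and 1120, 976 and 1070 CPM in uninduced lines, but 1170 against 1130 CPM in treated and untreated parental cells. It fell by 0.61 (SE 0.1, adjusted p = 0.001), while the parental pair was level. ITGB3 and ITGA8 fell by 0.91 and 0.68, and the falls of ITGB4 (-1.08) and ITGA1 (-0.47) were not stable: ITGB4 was lost without hairpin 1 (adjusted p = 0.11), 2 (0.057) or 3 (0.21), and ITGA1 without hairpin 1 (0.2). ITGA5, the fibronectin receptor chain, went the other way, with 1220, 1350 and 1450 CPM in induced and 992, 979 and 953 CPM in uninduced lines, and 1340 against 945 CPM in parental cells (0.46, SE 0.088, adjusted p = 0.0024). The other 9 integrins tested did not pass the threshold.

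Contractile targets of SRF and its actin-sensing partner MRTF moved in both directions. Of 36 tested, 12 rose and 4 fell (33.3% and 11.1%), 5 and 1 of them stable, with a median of 0.12 and of 0.24 in the parental pair. TAGLN (transgelin), an actin-bundling protein of smooth muscle, held 218, 219 and 501 CPM in induced and 55.3, 83.3 and 59.8 CPM in uninduced lines, and 122 against 65.2 CPM in parental cells. Hairpin 3 had by far the highest value, and the rise was 2.24 (SE 0.34, adjusted p = 0.0019). ACTA2, smooth muscle actin, held 41.5, 46.0 and 97.5 CPM in induced and 17.8, 15.2 and 17.7 CPM in uninduced lines, and 49.4 against 17.7 CPM in the parental pair (1.87, SE 0.3, adjusted p = 0.0021). MYL9, a myosin light chain, held 779, 985 and 1350 CPM in induced and 420, 521 and 421 CPM in uninduced lines, and 680 against 409 CPM in parental cells (1.19, SE 0.16, adjusted p = 0.00047). MYLK, the kinase of that light chain, fell by 0.55 (SE 0.1, adjusted p = 0.0019), with 406, 411 and 378 CPM in induced and 612, 565 and 578 CPM in uninduced lines, and 608 against 709 CPM in parental cells.

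In the TGF-beta and BMP pathway, 6 of 48 genes tested rose and 9 fell (12.5% and 18.8%), 4 and 2 of them stable. The stable rises besides TGFBI were BMP1, NBL1 and LTBP3. BMP1, which trims procollagens, held 168, 236 and 239 CPM in induced and 93.4, 89.6 and 94.2 CPM in uninduced lines, and 156 against 83.7 CPM in parental cells (1.21, SE 0.12, adjusted p = 1e-04). NBL1, a BMP antagonist, and LTBP3, which stores latent TGF-beta in the matrix, rose by 0.86 and 0.62. Their parental log2 ratios were 0.9 and 0.83. The stable falls were in a receptor and a signal transducer. TGFBR3 (betaglycan), a co-receptor of TGF-beta, held 14.1, 16.4 and 13.2 CPM in induced and 32, 27.9 and 27.1 CPM in uninduced lines, and 25.3 against 31.2 CPM in parental cells (-0.99, SE 0.19, adjusted p = 0.0024). SMAD1, a transducer of BMP signals, fell by 0.41 (SE 0.097, adjusted p = 0.0067), while treated parental cells had 15.0 CPM against 12.9 CPM in untreated ones.

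The insulin-like growth factor axis held binding proteins that moved in both directions. Of 19 genes tested, 3 rose and 7 fell (15.8% and 36.8%), with a median of 0 in the hairpin lines and 0.56 in the parental pair. The binding proteins IGFBP6, IGFBP4 and IGFBP7 rose by 1.10, 0.96 and 0.47, with parental log2 ratios of 1.41, 1.29 and 0.83, and the call of IGFBP7 was lost without hairpin 2 (adjusted p = 0.11) or 3 (0.18) and without single libraries: induced 2 (0.084), induced 3 (0.091), uninduced 1 (0.1) and uninduced 3 (0.071), and on FPKM with a pseudocount of 0.1 (0.22). Besides IGFBP1, the receptor adaptor IRS1 held 41.7, 49.7 and 41.6 CPM in induced and 77.6, 77.9 and 69.6 CPM in uninduced lines, and 53.9 against 74.9 CPM in parental cells (-0.76, SE 0.11, adjusted p = 0.00047). PAPPA, a protease that frees growth factor by cutting IGFBP4, held 58.3, 90.2 and 94.0 CPM in induced and 161, 111 and 133 CPM in uninduced lines, yet 277 CPM in treated against 137 CPM in untreated parental cells. Its fall of 0.74 (SE 0.17, adjusted p = 0.0061) was largest in hairpin 1, and the difference from the parental effect was -1.75 (adjusted p = 0.042). The larger part of that difference lay in the single parental pair, with a log2 ratio of 1.01. With the Hs578 libraries alone, only 2 genes in all were called net of the parental effect. The receptor IGF1R fell by 0.51 (adjusted p = 0.0083), a call lost without hairpin 3 (0.071) and on FPKM with a pseudocount of 1 (0.28), of 0.1 (0.24), or of 1 and no filter (0.37).

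A list of FGF and ERK signalling genes, with ligands and receptors beside feedback regulators, fell in 10 and rose in 1 of 33 tested (30.3% and 3.03%). Of the falls 3 were stable, and the rise, in the receptor FGFR3, was not. The median was -0.21, with 0.05 in the parental pair, and no gene of the list was called net of the parental effect. FGF5, a fibroblast growth factor, held 77.0, 71.6 and 83.7 CPM in induced and 211, 149 and 183 CPM in uninduced lines, and 116 against 232 CPM in parental cells (-1.22, SE 0.17, adjusted p = 0.00059). NRG1, a ligand of ERBB receptors, held 31.3, 26.8 and 41.1 CPM in induced and 66.1, 58.6 and 62.4 CPM in uninduced lines, and 30.0 against 65.2 CPM in the parental pair (-0.91, SE 0.14, adjusted p = 0.00087). DUSP6, the phosphatase of ERK, held 34.2, 45.6 and 47.4 CPM in induced and 112, 123 and 50.3 CPM in uninduced lines. As for EGR1, the uninduced hairpin 3 library was the lowest uninduced one, and parental cells held 63.3 CPM with and 67 CPM without the drug. The fall of 1.17 was lost without hairpin 1 (adjusted p = 0.12) or 2 (0.079) and without the uninduced library of hairpin 1 (0.055).

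Among surface proteins used to sort mesenchymal cells, 2 of 22 rose and 5 fell (9.09% and 22.7%), with a median of -0.22 and of 0.41 in the parental pair. Besides MME, PDGFRA, the receptor of platelet-derived growth factor, held 106, 190 and 126 CPM in induced and 397, 239 and 343 CPM in uninduced lines, and 301 against 346 CPM in parental cells. The fall of 1.21 (SE 0.25, adjusted p = 0.0056) was small in hairpin 2, with a pair log2 ratio of -0.33, and was lost without hairpin 3 (adjusted p = 0.072). CD82, a tetraspanin, held 267, 372 and 347 CPM in induced and 152, 149 and 145 CPM in uninduced lines, and 270 against 133 CPM in the parental pair (1.14, SE 0.12, adjusted p = 0.00012). The tetraspanin CD9 went down by 0.45 (SE 0.092, adjusted p = 0.0034), with 65.5, 68.6 and 55.8 CPM in induced and 84.7, 89.5 and 84.4 CPM in uninduced lines, and 77.4 against 85.3 CPM in parental cells.

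Mesenchymal transcription factors, the target included, had a median of 0: 11 of 60 rose and 7 fell (18.3% and 11.7%). The stable calls were CREB3L1 and PRRX1. CREB3L1, an activator of collagen genes in bone cells, held 61.9, 84.1 and 136 CPM in induced and 36.4, 47.9 and 33.7 CPM in uninduced lines, and 109 against 41.3 CPM in parental cells (1.26, SE 0.25, adjusted p = 0.0052). SOX9, the factor of cartilage, held 96.2, 75.2 and 52.2 CPM in induced and 136, 156 and 113 CPM in uninduced lines. Its fall of 0.86 (adjusted p = 0.044) was lost without hairpin 1 (adjusted p = 0.059), 2 (0.22) or 3 (0.14), without 5 single libraries in turn: induced 2 (0.11), induced 3 (0.14), uninduced 1 (0.11), uninduced 2 (0.13) and uninduced 3 (0.056), by DESeq2 (0.14), with no filter on counts (0.072) and on FPKM with a pseudocount of 0.1 (0.055).

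Proteoglycans of the matrix rose in 7 and fell in 1 of 30 genes tested (23.3% and 3.33%; median 0.07, and 0.23 in the parental pair). BGN (biglycan) held 210, 350 and 452 CPM in induced and 131, 156 and 118 CPM in uninduced lines, and 444 against 112 CPM in parental cells (1.32, SE 0.26, adjusted p = 0.0049), and LUM (lumican) rose by 1.47 with a parental log2 ratio of 2.04. GPC6, a glypican anchored to the membrane, fell: it held 3.74, 3.38 and 3.02 CPM in induced and 11.3, 5.18 and 7.89 CPM in uninduced lines, and 9.18 against 7.63 CPM in parental cells (-1.27, SE 0.25, adjusted p = 0.0031). Of 7 caveolar coat genes 3 rose and none fell (42.9% and 0%), and none of the calls was stable. Over 19 alternatives, PRKCDBP (0.59) lost its call in 5, with adjusted p up to 0.12, and PTRF (0.38) in 9, with adjusted p up to 0.15. PACSIN2 (0.26) lost it in 10, and on FPKM its log2 fold change was 0.02 (adjusted p = 0.92 with a pseudocount of 1, 0.91 with 0.1, and 0.97 with 1 and no filter).

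Wnt pathway genes were evenly divided, with 6 higher and 6 lower of 36 (16.7% each) and 2 stable falls. SFRP1, a secreted Wnt antagonist, held 164, 209 and 138 CPM in induced and 437, 328 and 427 CPM in uninduced lines, while treated and untreated parental cells held 471 and 465 CPM. It fell by 1.22 (SE 0.15, adjusted p = 0.00035), and the difference from the parental effect was -1.24 and missed the threshold (adjusted p = 0.093). FZD6, a Wnt receptor, fell by 0.60 (SE 0.11, adjusted p = 0.0022), with a parental log2 ratio of -0.43. In the Notch pathway, 5 of 27 rose and 3 fell (18.5% and 11.1%): MAML3, a coactivator of Notch, held 4.15, 4.87 and 3.31 CPM in induced and 11.4, 8.05 and 9.73 CPM in uninduced lines (-1.25, SE 0.21, adjusted p = 0.0012), and the receptor NOTCH2 fell by 0.46. The parental log2 ratios of MAML3 and NOTCH2 were -0.41 and -0.42. Of 14 Hedgehog genes 1 rose and none fell (7.14% and 0%). This was the co-receptor BOC (0.83, adjusted p = 0.0039, but 0.078 without hairpin 2 and 0.12 on FPKM with a pseudocount of 0.1), with a parental log2 ratio of 0.96.

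Guidance molecules of the semaphorin, ephrin, netrin and slit families rose in 6 and fell in 8 of 50 (12% and 16%; median -0.15). PLXND1, a semaphorin receptor, held 112, 135 and 113 CPM in induced and 81.4, 65.5 and 72.9 CPM in uninduced lines, and 156 against 68.3 CPM in parental cells (0.71, SE 0.098, adjusted p = 0.00045). SEMA3A, a secreted repellent, held 45.0, 33.7 and 23.8 CPM in induced and 79.9, 58.6 and 66.9 CPM in uninduced lines, and 49.1 against 82.1 CPM in parental cells. Its fall of 1.01 (adjusted p = 0.0077) was lost without hairpin 3 (0.058). Chemokines and interleukins rose in 3 and fell in 3 of 28 (10.7% each). CSF1, the growth factor of macrophages, was the stable fall: it held 187, 203 and 137 CPM in induced and 352, 327 and 311 CPM in uninduced lines, but 396 against 286 CPM in treated and untreated parental cells. The change was -0.91 (SE 0.14, adjusted p = 0.001), and its difference from the parental effect, -1.38, missed the threshold (adjusted p = 0.062).

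**Figure D5:**
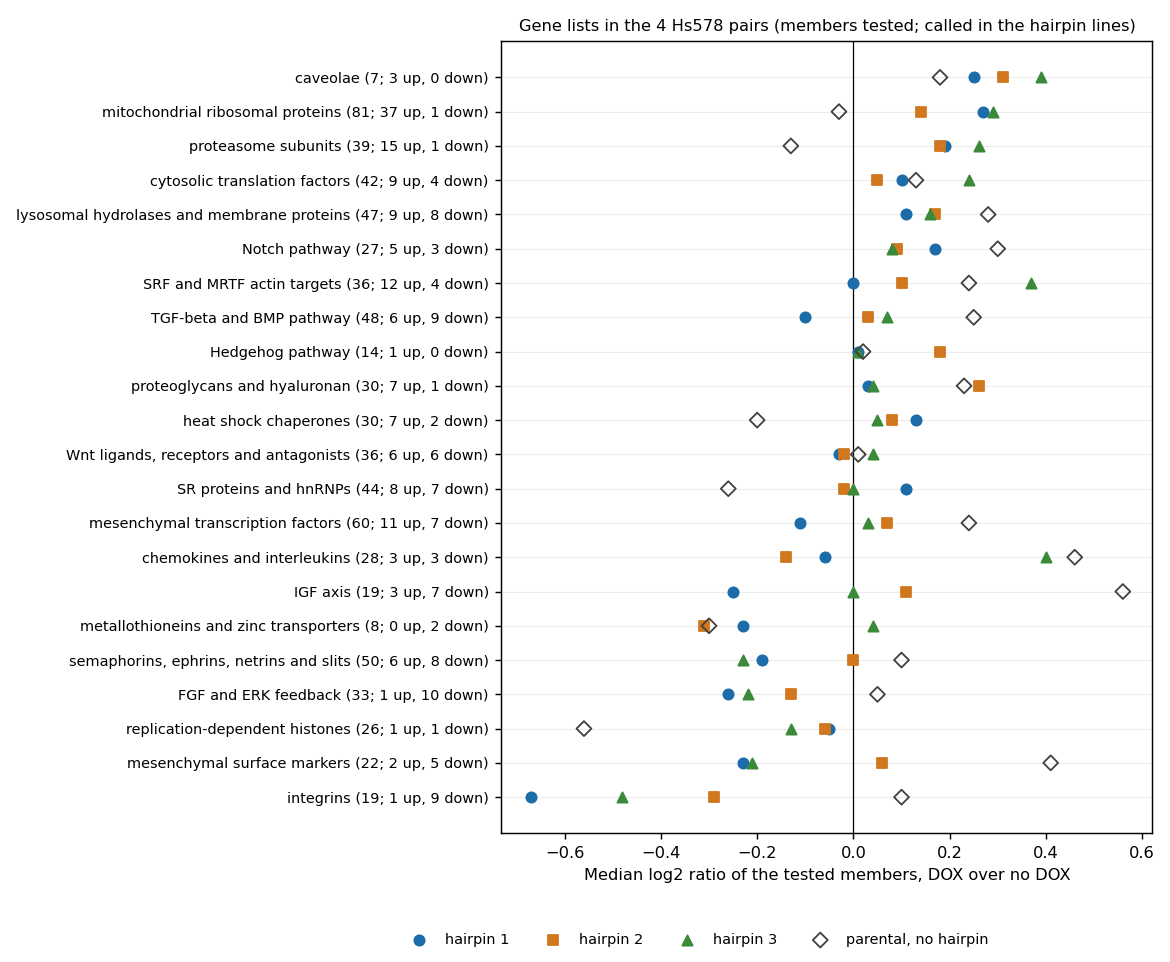
Median log2 ratio of doxycycline over none (x axis) of the tested members of 22 gene lists (y axis, with the number tested and the numbers called higher and lower in the hairpin lines), for hairpin 1 (circles), 2 (squares) and 3 (triangles) and the parental pair (open diamonds). Integrins lie below 0 in each hairpin pair (-0.67, -0.29 and -0.48) with the parental pair at 0.1. Mitochondrial ribosomal proteins and proteasome subunits lie above 0 in each hairpin pair and below 0 in the single parental pair. No integrin and no member of the mitochondrial ribosomal list was called net of the parental effect. Called higher net of it were 2 of 39 proteasome subunits and 4 of 44 genes of the SR protein list, beside 0.292% of all genes tested.

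Housekeeping complexes shifted by small amounts. The list of mitochondrial ribosomal proteins rose in 37 and fell in 1 of 81 genes tested (45.7% and 1.23%), 13 of the rises being stable. The fall was in GFM1, a translation factor and not a ribosomal protein. The median was 0.22, with -0.03 in the parental pair, and no gene of the list was called net of the parental effect. MRPL41 held 33.4, 37.5 and 47.1 CPM in induced and 20.3, 21.3 and 22.7 CPM in uninduced lines, and 21.8 against 18.3 CPM in parental cells (0.88, SE 0.12, adjusted p = 0.00049). MRPL27 held 34.2, 45.3 and 44.2 CPM in induced and 23.0, 24.9 and 26.5 CPM in uninduced lines, and 21.7 against 24.2 CPM in the parental pair (0.73, SE 0.11, adjusted p = 0.00071). Proteasome subunits rose in 15 and fell in 1 of 39 (38.5% and 2.56%), 6 of the rises being stable. Their median was 0.2, with -0.13 in the parental pair. Net of the parental effect, 2 subunits were called higher and none lower, beside 0.292% and 0.114% of all genes tested. PSMD4, a ubiquitin receptor of the proteasome, held 117, 134 and 136 CPM in induced and 84.7, 96.7 and 99.1 CPM in uninduced lines, and 80.3 against 88.0 CPM in parental cells (0.46, SE 0.082, adjusted p = 0.0016).

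Cytosolic translation factors rose in 9 and fell in 4 of 42 (21.4% and 9.52%), of which the rise of EEF1D was stable (0.62, SE 0.11, adjusted p = 0.0015). The parental log2 ratio of EEF1D was 0.33. Heat shock chaperones rose in 7 and fell in 2 of 30 (23.3% and 6.67%), none of them stable. Lysosomal genes rose in 9 and fell in 8 of 47 (19.1% and 17%), 6 and 3 of them stable. NPC1, which exports cholesterol from lysosomes, held 141, 163 and 120 CPM in induced and 324, 313 and 309 CPM in uninduced lines, and 233 against 345 CPM in parental cells (-1.16, SE 0.099, adjusted p = 5.5e-05). GAA, the lysosomal glucosidase, rose by 0.93 (SE 0.19, adjusted p = 0.0035), with a larger parental log2 ratio of 1.94. A list of SR proteins, hnRNPs and other splicing regulators, such as MBNL1, QKI and the kinases CLK2 and CLK3, rose in 8 and fell in 7 of 44 (18.2% and 15.9%). Net of the parental effect, 4 of the 44 were called higher and none lower. The median of this list in the single parental pair was -0.26. MBNL1 and QKI were the stable falls, by 0.59 and 0.53, with parental log2 ratios of -0.58 and -0.27. Of 8 genes of metallothioneins and zinc transport none rose and 2 fell (0% and 25%), both stable: SLC30A1, a zinc exporter, by 0.90 and SLC39A14, an importer, by 0.52, with parental log2 ratios of -1.12 and -0.62. Of 26 replication-dependent histone genes 1 rose and 1 fell (3.85% each), neither of them stable. The rise, in HIST1H4A, rested on 0.612, 1.15 and 0.769 CPM in induced and 0.291, 0.183 and 0.0576 CPM in uninduced lines. The libraries were made from polyadenylated RNA, and how well they captured histone transcripts was not tested.

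In all 3 hairpin pairs, 13 genes were at least 2-fold higher, 8 of which were also at least 2-fold higher in the parental pair. At least 2-fold lower in all of them were 32 genes, 13 of which were also at least 2-fold lower in parental cells. The following members of that set were chosen for naming after their values were seen. PTX3, a secreted pattern recognition protein, held 4.42, 5.28 and 7.45 CPM in induced and 15.1, 16.6 and 15.3 CPM in uninduced lines, and 14.1 against 17.7 CPM in parental cells (-1.44, SE 0.21, adjusted p = 0.00057). CNIH3, an auxiliary protein of glutamate receptors, held 5.37, 6.68 and 4.67 CPM in induced and 14.5, 17.4 and 15.5 CPM in uninduced lines, and 14.1 against 16.5 CPM in the parental pair (-1.51, SE 0.21, adjusted p = 0.00047). KITLG, the ligand of the receptor KIT, held 5.3, 4.29 and 7.27 CPM in induced and 18.1, 11.9 and 15.8 CPM in uninduced lines, and 11.9 against 20.4 CPM in parental cells (-1.43, SE 0.21, adjusted p = 6e-04). KLF4, a transcription factor of growth arrest and stem cells, held 23.1, 29.0 and 15.9 CPM in induced and 56.1, 64.7 and 48.0 CPM in uninduced lines, and 33.4 against 55.5 CPM in the parental pair (-1.32, SE 0.19, adjusted p = 0.00075). SESN2, a stress-induced inhibitor of mTORC1, held 17.1, 22.4 and 19.1 CPM in induced and 39.5, 56.8 and 47.8 CPM in uninduced lines, and 34.6 against 49.9 CPM in parental cells (-1.30, SE 0.13, adjusted p = 1e-04).

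The hairpin effect in Hs578 was finally set against that in TT642, where the same contrast called 4 genes (0.0285%), with 1098 at an unadjusted p under 0.05. That fit has no term for the derived line, and with one the TT642 contrast called 46 genes. The difference between the lines was called for 735 genes (5.24%), 387 higher (2.76%) and 348 lower (2.48%) in Hs578, and for 1763 with a term for each derived line. This count rested heavily on single lines: it was 1222 without Hs578 hairpin 1, 46 without hairpin 2, 58 without hairpin 3, 25 without TT642 hairpin 1 and 24 without TT642 hairpin 3. Without single induced libraries of Hs578 hairpins 1, 2 and 3 it was 2082, 193 and 172, and without the uninduced ones 93, 476 and 158. BMP1 was among the genes that differed, with a change of 1.21 in Hs578 and 0.00 in TT642 (difference 1.22, adjusted p = 0.0048). NPC1 changed by -1.16 in Hs578 and -0.15 in TT642 (difference -1.01, adjusted p = 0.004). CD82, by contrast, had a log2 fold change of 1.14 in Hs578 and 1.35 in TT642, and the difference of -0.21 was not called (adjusted p = 0.53). For PRRX1 the changes were -2.28 and -2.03 (difference -0.25, adjusted p = 0.81). The fall of PRRX1 in TT642 (SE 0.36) was itself not called in the fit without a term for the derived line (adjusted p = 0.17). The 4 calls there thus left out the target of the hairpins.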

How the data were processed

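Polyadenylated RNA was sequenced from 16 libraries after stranded TruSeq preparation, per the labels' protocols. The deposited tables hold the authors' raw read counts per gene and, separately, FPKM made by the authors (counts scaled to gene length and depth). The submitters' processing notes name hg19, and no source used here names the aligner or counter. The test was the quasi-likelihood one of edgeR 4.0.16 under R 4.3.3, on counts (TMM scaling, expression filter, robust quasi-likelihood fit with 1 mean per group over all 16 libraries), with Benjamini-Hochberg adjustment over 14035 genes and a threshold of 0.05. The hairpin effect in Hs578, its difference from the parental effect and its difference from TT642 were tested; these comparisons share libraries. A prior count of 2 entered the log2 ratio of each pair. Intervals at 95% cover counting error only, and reads carry no molecular identifiers.

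Samples were paired by title, as 1 derived line with and without doxycycline. Same-numbered libraries had correlations of their deviations from the group mean of 0.13, -0.03 and 0 in Hs578 and of 0.44, 0.42 and 0.42 in TT642. The libraries and gene lists were chosen with earlier results of these data known. Named genes are the target, its paralogue and the markers; the 12 per direction with the largest change among genes called also without each hairpin, whose mean log2 CPM was 2 or more and whose sign was the same in the 3 pairs; the 5 per direction with the smallest p net of the parental effect; up to 4 called genes per direction in each of 22 lists; and the 6 genes, whose mean log2 CPM was 4 or more and whose pair ratios differ most. Other names were chosen after their values were seen, as stated beside them or, for BMP1, NPC1 and CD82 in the TT642 comparison, here. Alternatives were RLE scaling, DESeq2 1.42.0, limma 3.58.1 on log2(FPKM + 1) or log2(FPKM + 0.1), no expression filter, no robust moderation, Hs578 libraries alone, a term per derived line and the leaving out of libraries. The fits were tested on simulated data.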

Additional observations from a re-analysis of the deposited data

Results flagged for a closer look

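These results are listed because the effect of induction in Hs578 differed by an edgeR test either from that in TT642 or from that of doxycycline in parental Hs578 cells. Values are differences of log2 fold changes.

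Against TT642, the change in Hs578 was more positive for TGFBI (1.42, adjusted p = 0.037), TAGLN (2.37, 0.033), IL32 (2.48, 0.016), TNC (1.89, 0.027), EFEMP2 (1.33, 0.042) and HLA-B (1.31, 0.045). It was more negative for ATF3 (-3.05, adjusted p = 0.044), GDF15 (-2.36, 0.023), PTGS2 (-1.79, 0.048) and KCNJ2 (-1.81, 0.041). With a term for each derived line the calls of HLA-B (adjusted p = 0.051), ATF3 (0.053) and PTGS2 (0.11) were lost. Among the genes named for their difference from parental cells, SKA3 (0.93, adjusted p = 0.016), CLSPN (0.93, 0.013), H2AFX (0.76, 0.016), ALYREF (0.46, 0.044) and FEN1 (0.68, 0.026) were more positive in Hs578, and PCDHGC3 (-1.12, 0.0015) and ABCA3 (-0.9, 0.042) more negative. Over the 20 alternatives run, PCDHGC3 kept an adjusted p of at most 0.016, and the other 16 genes lost the call in 3 to 15 of them.

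Against the parental effect in Hs578, the hairpin effect was more positive for SKA3 (1.93, adjusted p = 0.016), CLSPN (1.62, 0.016), H2AFX (1.39, 0.02), ALYREF (1.16, 0.02) and FEN1 (1.34, 0.02). It was more negative for SOD2 (-0.94, adjusted p = 0.021), PCDHGC3 (-1.04, 0.024), CPEB2 (-1.31, 0.024), MME (-1.54, 0.031) and ABCA3 (-1.92, 0.031). With the Hs578 libraries alone, CLSPN (adjusted p = 0.065), H2AFX (0.069), ALYREF (0.079), FEN1 (0.069), SOD2 (0.078), PCDHGC3 (0.079), CPEB2 (0.069), MME (0.069) and ABCA3 (0.11) missed the threshold. Over the 18 alternatives run, SKA3 kept an adjusted p of at most 0.044, while CLSPN lost its call in 1, H2AFX and ALYREF in 2 each, FEN1 in 5, PCDHGC3 in 6, SOD2 and CPEB2 in 7 each, and MME and ABCA3 in 9 each.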

How the results depend on the processing

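The 4118 genes called in the Hs578 hairpin lines became 1548 to 4768 when libraries were left out, and stayed within 1.5 times of that number under the other settings. Genes named only for their spread between hairpins, such as DUSP1, are not among the 156 named genes counted here. Of these 156, tested in the Hs578 hairpin lines, 62 lost their call without hairpin 3, 49 without hairpin 2, 32 without hairpin 1 and 43 without the uninduced library of hairpin 1. On FPKM 22 were lost with a pseudocount of 1, 27 with 0.1 and 30 with 1 and no filter, against 1 each by DESeq2 and with RLE scaling and 3 with the replicate block; the block changed no other call among them. CLK3 reversed to -0.07 in the 3 fits to FPKM, and the cause was not tested. The 57 genes that differed from the parental effect became 296 by DESeq2, 2 with the Hs578 libraries alone, 140 with the replicate block, 13 on log2(FPKM + 0.1) and 165 on log2(FPKM + 1) without a filter, and 5 to 128 when libraries were left out. The 735 genes that differed from TT642 became 1425 by DESeq2, 1763 with the replicate block and 1118 on log2(FPKM + 1), and 24 to 2082 when libraries were left out. Why these counts moved was not tested. Differences from the parental effect rest on 1 parental pair. Power by count level was not tested.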
